A study of Mus musculus with 12 samples.

Results

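The receptors for the cytokines RANKL and M-CSF and the noncanonical arm of NF-kB signalling were followed at the RNA level in mouse osteoclast cultures. The genes were chosen by name and comprised Tnfrsf11a, Csf1r, Traf6, Traf3, Traf2, Map3k14, Nfkb2 and Relb, which are 8 of the 46983 genes in the count table. All 8 were among the 14153 genes whose counts were high enough to test.

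Osteoclasts are the cells that resorb bone, and they form from monocytes that need signals through both of these receptors. Csf1r encodes the receptor tyrosine kinase for M-CSF, which keeps the precursors alive and dividing, and Tnfrsf11a encodes RANK, the receptor for RANKL, which commits them to the osteoclast fate. RANK has no enzyme activity of its own and signals through the adaptor TRAF6, which turns on canonical NF-kB and MAP kinases. In the noncanonical arm, TRAF3 and TRAF2 hold the kinase NIK, the product of Map3k14, at a low level by directing its degradation. Once a receptor such as RANK has removed TRAF3, NIK accumulates, the precursor protein made from Nfkb2 is processed, and its product pairs with RELB in the nucleus. Most of these steps act on proteins, which RNA counts do not measure.

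Each of 4 groups held 3 libraries. The Mincle knockout (KO) groups came from Mincle-deficient mice on a C57BL/6 background, which lack a myeloid C-type lectin receptor encoded by Clec4e, and the wildtype (WT) groups from C57BL/6 mice. Within each genotype, the cultures received supernatant of necrotic osteocytes, which had been starved of serum, or supernatant of viable osteocytes as the control, mixed in a 1:2 ratio on day 1 and kept for 24 h. All 4 groups were grown from bone marrow monocytes with 20 ng/ml of M-CSF and 10 ng/ml of RANKL, so both receptors had their ligand in every culture, and RNA was taken on day 3. No group received starved medium that had seen no cells, so products of necrotic cells and the lack of serum cannot be told apart. The labels give neither the sex and age of the mice nor whether libraries came from separate animals, so p-values measure the spread between these libraries, which may be technical. The comparisons ask which genes respond to necrotic supernatant, and whether the response differs without Mincle.

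The libraries held 16382366 to 49612055 counts, and levels below are CPM, counts scaled to library size with TMM factors, as mean ± SD with n = 3. Clec4e had 1.94 ± 0.369 CPM in KO necrotic and 1.88 ± 0.479 CPM in KO viable cultures, against 25.1 ± 2.98 CPM in WT necrotic and 24.2 ± 1.71 CPM in WT viable cultures, as labelled. The cultures expressed osteoclast genes: the summed level of 10 markers, among them Acp5, Ctsk and Calcr, was 19314 to 20144 CPM in KO necrotic, 15239 to 15545 CPM in KO viable, 21861 to 23139 CPM in WT necrotic and 17245 to 17620 CPM in WT viable libraries. Sums of 10 markers each were 4312 to 5917 CPM for macrophages, 1213 to 1520 CPM for neutrophils, 55.8 to 105 CPM for dendritic cells, 19.8 to 94.2 CPM for stromal and bone cells, and 16.2 to 29.8 CPM for B and T cells over all libraries. The macrophage sum was 5642 to 5917 CPM in KO necrotic and 4973 to 5074 CPM in KO viable libraries. It was 5575 to 5788 CPM in WT necrotic and 4312 to 4820 CPM in WT viable libraries. The stromal and bone sum was 19.8 to 36.9 CPM in KO necrotic and 24.9 to 46.9 CPM in KO viable libraries. It was 30.9 to 47.8 CPM in WT necrotic and 61.2 to 94.2 CPM in WT viable libraries. In bulk RNA, fewer cells of a type and less RNA per cell cannot be told apart. Exons of Csf1r share 873 bases with Hmgxb3 on the opposite strand and those of Nfkb2 share 299 bases with Psd on the opposite strand. Hmgxb3 had 333 to 1211 counts per library, against at least 36393 for Csf1r, and Psd 489 to 1348, against at least 3467 for Nfkb2. Exons of Map3k14 share 135 bases with 1700028N14Rik on the same strand. The latter had 0 to 3 counts per library, against at least 464 for Map3k14. Exons of Nfkb2 also share 531 bases with AC114539.1 on the opposite strand. That gene is not in the count table, so its level is unknown.

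Nfkb2 and Traf3 are shown with the bases before their RefSeq transcription starts because these windows held matches to the kappa B consensus, the sequence that NF-kB dimers bind. RefSeq windows from 250 bases before to 50 bases after a start were searched on GRCm38.p6 for 6 of the 8 genes, 8 windows in all. No window of Csf1r or Relb was searched. Nfkb2 (chr19:46304320-46312385 on GRCm38, plus strand) encodes the precursor that is processed in the noncanonical arm. Traf3 (chr12:111166370-111267153, plus strand) encodes the brake of that arm. The 100 bases before the first Nfkb2 start in the table (chr19:46304637-46304736, plus strand) and before the Traf3 start (chr12:111166270-111166369, plus strand) read as follows, with the matches in capitals.
Nfkb2: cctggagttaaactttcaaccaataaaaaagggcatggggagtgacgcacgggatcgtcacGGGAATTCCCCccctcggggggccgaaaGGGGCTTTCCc
Traf3: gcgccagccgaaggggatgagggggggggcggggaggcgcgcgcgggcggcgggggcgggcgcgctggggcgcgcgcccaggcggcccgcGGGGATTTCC

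With the start as position 0, the Nfkb2 window held GGGAATTCCC at -39 to -30, which matches on both strands, an overlapping match on the opposite strand at -38 to -29, and GGGGCTTTCC at -11 to -2. The later Nfkb2 windows held another 2 sites, and 1 of these, GGGACTTTCC, lies in both of them. Traf3 held GGGGATTTCC at -10 to -1. The consensus was searched by name on both strands and occurred in 4.51% of the 32851 windows of the table. The windows of Tnfrsf11a, Traf6, Traf2 and Map3k14 held no match, which says only that these letters are not in those windows. A match is a description of the sequence and not of binding.

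Another 5 of the genes lie on GRCm38 at chr1:105780718-105847981 (Tnfrsf11a, plus strand), chr2:101678429-101701669 (Traf6, plus strand), chr2:25517982-25546940 (Traf2, minus strand), chr11:103219762-103267472 (Map3k14, minus strand) and chr7:19606217-19629438 (Relb, minus strand). All 8 genes are protein-coding.

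The genes differed widely in level. To set one gene against another, counts were divided by exon length and scaled to a common library total (TPM). Csf1r stood highest at a mean of 1160 TPM over the 12 libraries (964 to 1324), and its lowest library was far above the highest library of any other member. Nfkb2 followed at 136 TPM (109 to 154), then Tnfrsf11a at 89.0 TPM (75.0 to 99.1) and Relb at 50.03 TPM (43.1 to 55.0). These levels did not overlap between neighbours, and the order of the first 4 genes was the same in all 12 libraries.

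The 3 adaptors lay close together below them. Traf3 had a mean of 28.9 TPM (20.5 to 34.9), Traf6 of 26.0 TPM (19.7 to 30.7) and Traf2 of 23.6 TPM (19.1 to 27.7). Traf3 was above Traf6 in 10 of 12 libraries and Traf6 above Traf2 in 9 of 12, and their ranges overlapped. Map3k14 was lowest in all 12 libraries at 12.4 TPM (10.5 to 15.7). The transcript of the M-CSF receptor thus outnumbered that of RANK in every library, with a ratio of TPM of 13.0 ± 0.924 in KO necrotic, 13.3 ± 0.923 in KO viable, 13.6 ± 1.86 in WT necrotic and 12.5 ± 1.11 in WT viable cultures (SD, n = 3). The ranges of this ratio overlapped among all 4 groups. TPM values serve here for the order of genes and not for differences between groups, since 1 short RNA of 57 bases, Gm23935, took between 0.811% and 16.4% of the length-scaled signal of a library and so moved the TPM of every other gene. The ranges of TPM over libraries include that effect, which the order of genes within a library and the ratio of 2 genes do not.

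**Figure D1:**
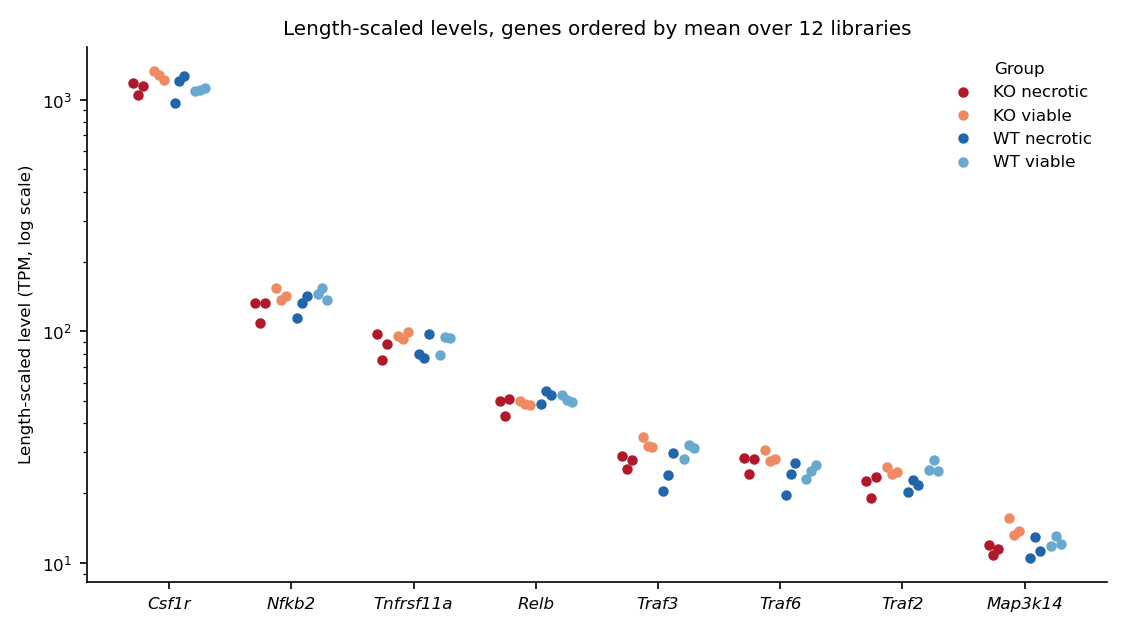
Length-scaled level (TPM, log axis) of the 8 genes in each of the 12 libraries, ordered by the mean over libraries, with points coloured by group. Csf1r lies at 964 to 1324 TPM and Map3k14 at 10.5 to 15.7 TPM, while Traf3, Traf6 and Traf2 overlap.

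In the comparisons of single groups no member passed the test, and with 8 genes that is near the share of all genes that passed. With edgeR's quasi-likelihood test and Benjamini-Hochberg adjustment over all 14153 genes, 0 of 8 passed an adjusted p of 0.05 in WT necrotic against WT viable cultures, where 9.31% of all genes passed, and 4 of the 8 and 3577 of all genes had an unadjusted p under 0.05. In KO necrotic against KO viable cultures 0 of 8 passed, against 7.43% of all genes, and 2 of the 8 and 3137 of all genes had an unadjusted p under 0.05. For the difference between the genotypes in the response to necrotic supernatant (KO response minus WT response) 0 of 8 and 0% of all genes passed, while 1 of the 8 and 1064 of all genes had an unadjusted p under 0.05. In KO viable against WT viable cultures 0 of 8 passed, against 5.84% of all genes, with 3 of the 8 and 3375 of all genes under an unadjusted p of 0.05. In KO necrotic against WT necrotic cultures 0 of 8 passed, against 8.13% of all genes, with 2 of the 8 and 3626 of all genes under an unadjusted p of 0.05. DESeq2 called 1 of the 8 in WT necrotic against WT viable and 1 in KO viable against WT viable, Csf1r in both cases, and 0 in the other 3 comparisons, with 5 of all genes for the difference of responses.

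Over the 8 genes the log2 fold changes ran from -0.20 to 0.16 in WT necrotic against WT viable, from -0.16 to 0.13 in KO necrotic against KO viable, from -0.12 to 0.15 in KO viable against WT viable and from -0.14 to 0.17 in KO necrotic against WT necrotic cultures. Their medians were 0.03, -0.04, 0.05 and -0.02 in that order, beside medians of -0.01, -0.00, -0.01 and -0.01 for all genes tested. Libraries of the 2 groups did not overlap for 2, 1, 5 and 3 of the 8 genes, and for 24.3%, 31.3%, 28.8% and 29.8% of all genes. The comparisons share groups: WT viable libraries enter both the first and the third, for example.

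**Figure D2:**
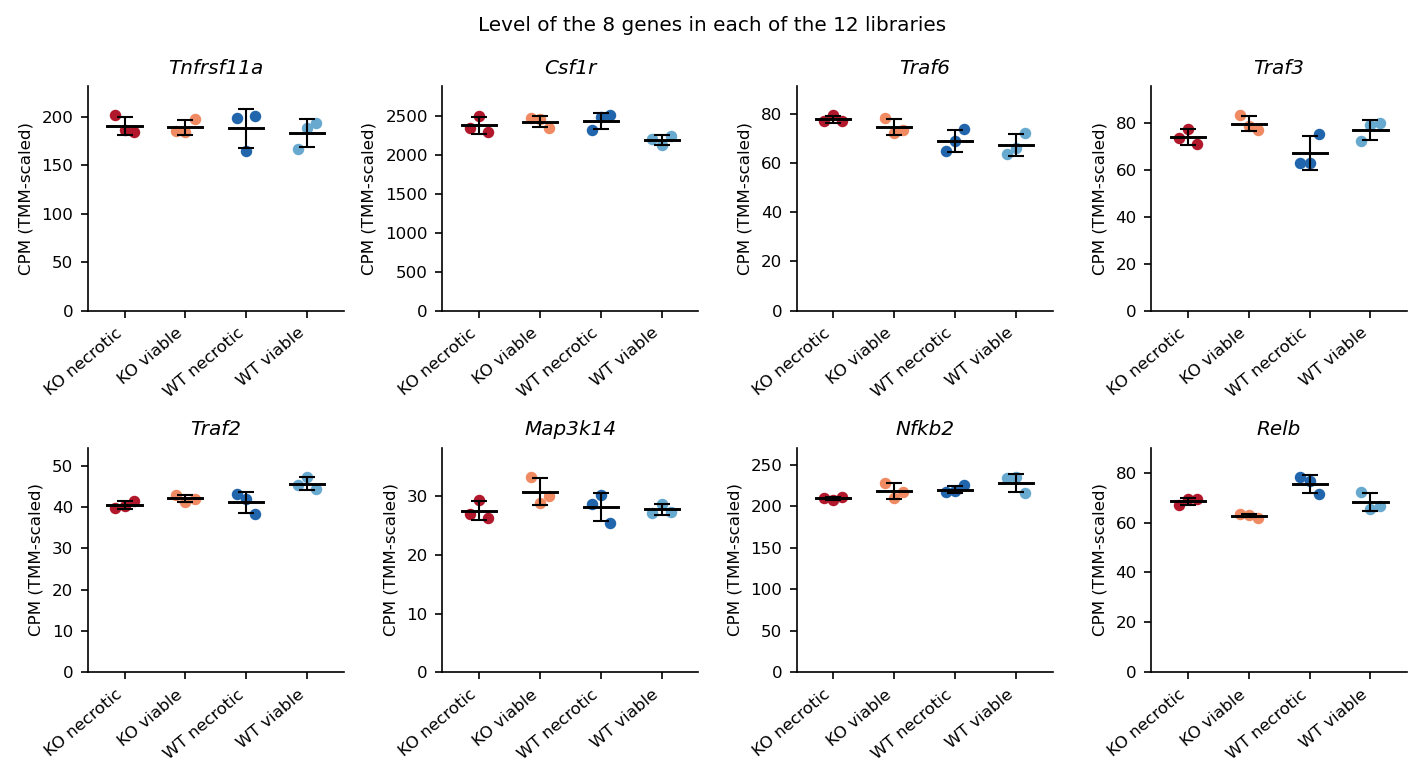
Level of each gene in every library (CPM after TMM scaling, axis from 0), with 1 panel a gene, 3 points a group, and the group mean and SD as bars. No group stands far from the others for any gene, and the largest shifts, such as Traf3 at 62.9 to 75.4 CPM in WT necrotic against 72.3 to 79.9 CPM in WT viable libraries, are small beside the level itself.

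Csf1r, the M-CSF receptor, had 2348, 2502 and 2292 CPM in KO necrotic libraries, 2481, 2464 and 2343 CPM in KO viable libraries, 2319, 2492 and 2510 CPM in WT necrotic libraries and 2206, 2125 and 2242 CPM in WT viable libraries. The WT viable group was the low one, and none of its libraries reached the lowest library of any other group. The macrophage sum was also lowest in WT viable libraries, as given above, and its part was not tested. WT necrotic cultures averaged 2440 ± 105 CPM and WT viable cultures 2191 ± 59.8 CPM, a log2 fold change of 0.16 ± 0.05 (SE; 95% interval 0.05 to 0.26), and all 3 WT necrotic libraries were above all 3 WT viable ones. The adjusted p was 0.0522 in edgeR's test and lay between 0.0144 and 0.218 over 12 alternatives, 4 of which called the gene. Among these, DESeq2 gave 0.0144, a fit that removes trends with gene length and GC content gave 0.0232, median-ratio scaling gave 0.0499, and leaving out WT necrotic 1 gave 0.0255.

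In the KO cultures the receptor did not show that difference. KO necrotic cultures averaged 2381 ± 109 CPM and KO viable cultures 2429 ± 75.4 CPM, a log2 fold change of -0.03 ± 0.05 (95% interval -0.13 to 0.07, adjusted p = 0.784, edgeR). The KO response minus the WT response was -0.18 ± 0.07 on the log2 scale (95% interval -0.33 to -0.04), and this difference did not pass the test (adjusted p = 0.583, edgeR). In KO viable against WT viable cultures Csf1r was higher in 3 of 3 libraries by a log2 fold change of 0.15 ± 0.05, with an adjusted p of 0.0751 in edgeR's test. DESeq2 gave 0.0215, and the range over 12 alternatives was 0.0215 to 0.204.

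No log2 fold change of Tnfrsf11a, the RANK gene, exceeded 0.05 in the 4 comparisons of groups. It had 201, 186 and 184 CPM in KO necrotic libraries and 185, 185 and 198 CPM in KO viable libraries. WT necrotic libraries had 198, 165 and 201 CPM and WT viable libraries 166, 188 and 194 CPM. All 4 groups overlapped. The log2 fold change was 0.04 ± 0.07 in WT necrotic against WT viable (95% interval -0.12 to 0.20) and 0.01 ± 0.07 in KO necrotic against KO viable cultures (95% interval -0.14 to 0.17), with adjusted p-values of 0.782 and 0.947 in edgeR's test. The genotype differences were 0.05 ± 0.07 under viable and 0.02 ± 0.07 under necrotic supernatant. The interval of the WT response reaches a fold of 1.145, and a p over the threshold does not show that the levels were equal.

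Traf6, the adaptor of the canonical arm, had 77.0, 79.4 and 77.0 CPM in KO necrotic libraries, 78.4, 72.4 and 73.5 CPM in KO viable libraries, 64.8, 68.8 and 73.7 CPM in WT necrotic libraries and 63.9, 66.0 and 72.2 CPM in WT viable libraries. The 2 KO groups were the high ones, and under either supernatant each KO library was above each WT library. Its log2 fold change came to 0.17 ± 0.06 in KO necrotic against WT necrotic (adjusted p = 0.0846) and 0.15 ± 0.06 in KO viable against WT viable cultures (adjusted p = 0.142, edgeR). In a fit without the trends in length and GC content it was 0.09 ± 0.05 under either supernatant (adjusted p = 0.286 under necrotic and 0.297 under viable, edgeR). Necrotic supernatant moved it by 0.06 ± 0.06 in KO and by 0.03 ± 0.06 in WT cultures, with the libraries overlapping in both genotypes.

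Traf3, the brake of the noncanonical arm, had 73.7, 77.6 and 71.0 CPM in KO necrotic libraries, 83.3, 78.5 and 77.2 CPM in KO viable libraries, 62.9, 62.9 and 75.4 CPM in WT necrotic libraries and 72.3, 79.1 and 79.9 CPM in WT viable libraries. The necrotic groups were lower on average in both genotypes, but 1 WT necrotic library lay within the WT viable range and 1 KO necrotic library above the lowest KO viable one. The log2 fold change was -0.11 ± 0.07 in KO necrotic against KO viable (adjusted p = 0.394) and -0.20 ± 0.07 in WT necrotic against WT viable cultures (95% interval -0.34 to -0.05, adjusted p = 0.0797, edgeR). Over 12 alternatives the adjusted p of the WT response ran from 0.00944 to 0.285. It passed without WT necrotic 3 (0.00944, log2 fold change -0.30), without WT viable 1 (0.0363, -0.24) and with no filter on low counts (0.0175).

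Traf2, which links TRAF3 to the ubiquitin ligases that mark NIK, had 39.7, 40.3 and 41.5 CPM in KO necrotic libraries. It had 42.9, 41.3 and 42.0 CPM in KO viable libraries. In WT cultures it had 43.2, 41.9 and 38.3 CPM in necrotic and 45.3, 47.3 and 44.2 CPM in viable libraries. Like Csf1r it set the WT viable group apart, but in the other direction: each WT viable library was above every other library. The stromal and bone sum was also highest in WT viable libraries, as given above, and its part was not tested. The log2 fold change was -0.15 ± 0.06 in WT necrotic against WT viable (adjusted p = 0.105) and -0.11 ± 0.06 in KO viable against WT viable cultures (adjusted p = 0.230, edgeR). In KO necrotic against KO viable cultures it was -0.05 ± 0.06.

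Map3k14, the NIK gene and the least abundant of the 8, had 27.0, 29.4 and 26.3 CPM in KO necrotic libraries. It had 33.3, 28.9 and 30.0 CPM in KO viable libraries. In WT cultures it had 28.6, 30.3 and 25.5 CPM in necrotic and 27.2, 28.8 and 27.3 CPM in viable libraries. KO viable was the high group, with its lowest library just above the highest WT viable one. Its change on the log2 scale was -0.16 ± 0.08 in KO necrotic against KO viable (adjusted p = 0.225), 0.02 ± 0.08 in WT necrotic against WT viable and 0.15 ± 0.08 in KO viable against WT viable cultures (adjusted p = 0.238, edgeR). The KO response minus the WT response was -0.18 ± 0.11 (adjusted p = 0.716, edgeR). Without KO viable 1, the highest library, the KO response was -0.10 and the difference between KO viable and WT viable cultures was 0.09.

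Nfkb2 had 210, 207 and 212 CPM in KO necrotic libraries, 228, 209.9 and 217 CPM in KO viable libraries, 217, 218 and 225 CPM in WT necrotic libraries and 233, 235 and 215 CPM in WT viable libraries. KO necrotic was the low group, and all 3 of its libraries were below all WT necrotic ones. Log2 fold changes were -0.06 ± 0.05 in KO necrotic against KO viable, -0.05 ± 0.05 in WT necrotic against WT viable, -0.06 ± 0.05 in KO viable against WT viable and -0.07 ± 0.05 in KO necrotic against WT necrotic cultures (adjusted p = 0.362 for the last, edgeR). The 95% interval of the last comparison was -0.17 to 0.03.

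Relb, whose protein is the transcription factor partner of processed NFKB2, had 66.9, 69.4 and 69.2 CPM in KO necrotic libraries, 63.3, 63.1 and 62.0 CPM in KO viable libraries, 78.3, 76.7 and 71.4 CPM in WT necrotic libraries and 72.3, 65.5 and 66.8 CPM in WT viable libraries. KO viable was the lowest group and WT necrotic the highest. All KO necrotic libraries were above all KO viable ones, while 1 WT viable library exceeded the lowest WT necrotic library. The log2 fold change was 0.13 ± 0.05 in KO necrotic against KO viable (adjusted p = 0.154) and 0.15 ± 0.05 in WT necrotic against WT viable cultures (adjusted p = 0.0812, edgeR), and the responses differed by -0.02 ± 0.07 (95% interval -0.17 to 0.13). Each KO library was below each WT library under the same supernatant, with a log2 fold change of -0.14 ± 0.05 under necrotic (adjusted p = 0.10) and -0.12 ± 0.05 under viable supernatant (adjusted p = 0.168, edgeR). Once the length and GC trends were taken out, these were -0.05 ± 0.05 under necrotic (adjusted p = 0.591) and -0.09 ± 0.05 under viable supernatant (adjusted p = 0.311, edgeR).

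Some of these calls turned on 1 library or on the scaling. Relb passed in the WT response without WT viable 1 (adjusted p = 0.0242) and without WT necrotic 3 (0.0387), in a range of 0.0242 to 0.279 over 12 alternatives. In the KO response it passed with the length and GC trends removed (0.0486, range 0.0486 to 0.333). Without WT necrotic 3, 3 genes passed in KO necrotic against WT necrotic cultures: Traf6 (0.0381, range 0.0381 to 0.286), Traf3 (0.0268, range 0.0268 to 0.544) and Relb (0.0474, range 0.0474 to 0.591).

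**Figure D3:**
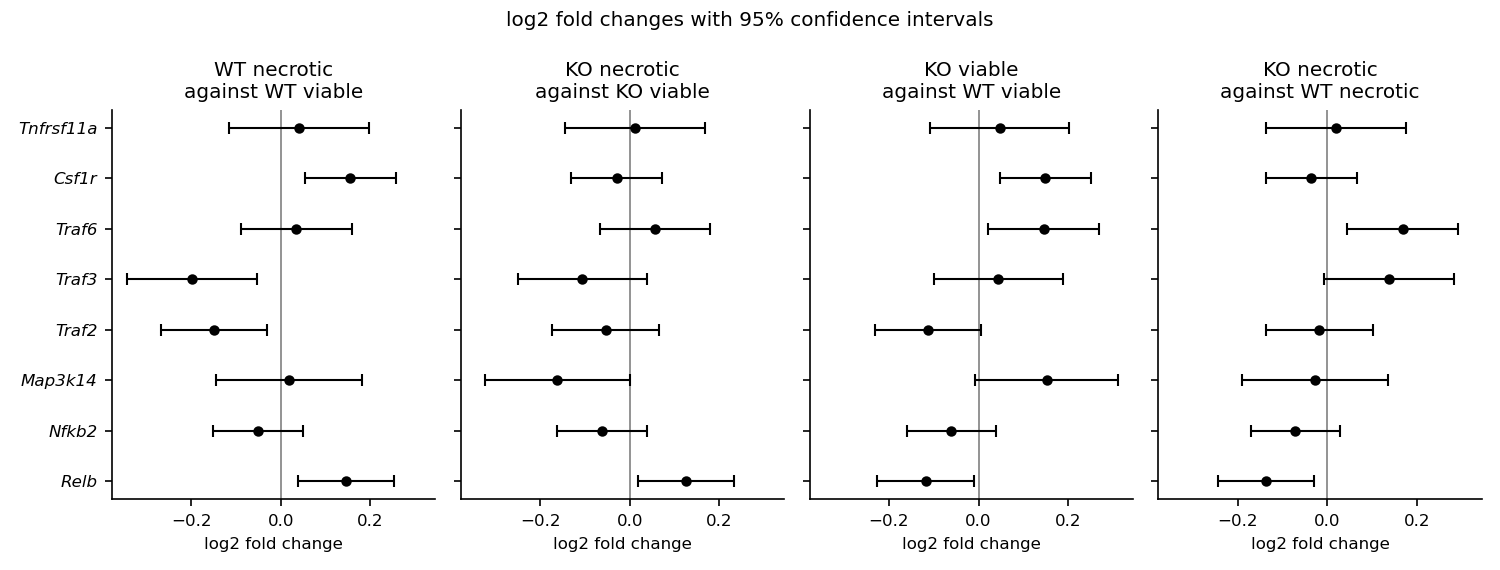
Log2 fold changes of the 8 genes (points) with 95% intervals (bars) from edgeR's fit in the 4 comparisons of groups, as the culture named first in each panel title over the second. All points lie between -0.20 and 0.17. In the WT response the intervals of Csf1r and Relb lie above 0 and those of Traf3 and Traf2 below 0. In other panels some intervals of Csf1r, Traf6, Relb and Map3k14 also exclude 0. No adjusted p passed in any panel.

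Because several genes moved by like amounts in both genotypes, the responses were also averaged over genotypes, and the genotype differences over supernatants, in the same model. These 2 comparisons were added after the values had been seen. With 6 libraries on each side, 2 of 8 genes passed in necrotic against viable cultures, where 19.4% of all genes passed. Relb was higher by 0.14 ± 0.04 on the log2 scale (95% interval 0.06 to 0.21), which is 9.87%, with an adjusted p of 0.0151. Traf3 was lower, with a log2 fold change of -0.15 ± 0.05 (95% interval -0.25 to -0.05), or -10.0%, and an adjusted p of 0.0372 (edgeR). Traf2 followed with -0.10 ± 0.04 and an adjusted p of 0.0858, and the other 5 had between -0.07 and 0.06.

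The call for Relb held under all 17 alternatives, with adjusted p-values of 0.00425 to 0.0473. That for Traf3 held under 7 of 17, in a range of 0.00295 to 0.0975. It was lost when any one of 9 libraries was left out, namely WT viable 2 or 3, WT necrotic 1 or 2, KO viable 1, 2 or 3, or KO necrotic 1 or 3, and also once trends in length and GC content were taken out (0.0687). Across 12618 genes, the averaged log2 fold change fell with gene length (Spearman rho -0.26). Of all tested genes with a known length, Traf3 is longer than 81.2% and Relb longer than 48.1%. With those trends removed Relb kept 0.14 ± 0.03 (adjusted p = 0.0073), Traf3 had -0.11 ± 0.04, and Csf1r passed with 0.09 ± 0.03 (adjusted p = 0.0471, range 0.0471 to 0.425 over 17 alternatives). The summed dendritic cell markers, a cell type known for high RelB, moved the other way from Relb, with 55.8 to 60.6 CPM in KO necrotic against 91.9 to 102 CPM in KO viable libraries and 65.1 to 77.4 CPM in WT necrotic against 91.9 to 105 CPM in WT viable libraries. H2-Ab1, at a mean of 50.2 CPM over all libraries, was the largest part of this sum. Flt3 (-0.04 ± 0.15 in the WT and -0.02 ± 0.15 in the KO response) and Zbtb46 (0.08 ± 0.19 and -0.18 ± 0.20) were not called. Of that list, 5 of 9 tested markers fell and 0 rose in the averaged comparison, and their part in the result was not tested. In the same comparison 10 of 10 osteoclast markers rose, as did 8 of 10 macrophage markers while 1 fell. Of the tested markers of other cells, 6 of 7 stromal and bone markers and 4 of 5 B and T cell markers fell, and of 10 neutrophil markers 2 rose and 5 fell. The part of these lists was not tested either.

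In KO against WT cultures, averaged over supernatants, 2 of 8 genes passed, where 20.5% of all genes did. Traf6 was higher in KO by 0.16 ± 0.04 on the log2 scale (95% interval 0.07 to 0.24, adjusted p = 0.0152), and Relb was lower, with a log2 fold change of -0.13 ± 0.04 (95% interval -0.20 to -0.05, adjusted p = 0.0205, edgeR). Here the log2 fold change across the same 12618 genes rose with gene length (Spearman rho 0.40) and fell with GC content (rho -0.22). Traf6 is longer than 83.8% of genes and lower in GC content than most, at a percentile of 30.1, while Relb stands at a GC percentile of 86.9. With both trends removed, neither gene passed: Traf6 had 0.09 ± 0.03 (adjusted p = 0.0835, range 0.00268 to 0.0835 over 17 alternatives) and Relb -0.07 ± 0.03 (adjusted p = 0.186, range 0.0092 to 0.186). Relb also missed the threshold without KO viable 3 (0.0507) and without KO necrotic 1 (0.0599). Marker lists moved in this comparison too: 5 of 10 osteoclast markers, 5 of 7 tested stromal and bone markers and 2 of 9 tested dendritic cell markers were lower in KO. Of 10 neutrophil markers 1 was higher and 7 lower, of 10 macrophage markers 3 were higher and 1 lower, and 1 of 5 tested B and T cell markers was higher. Their part in the result was not tested.

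**Figure D4:**
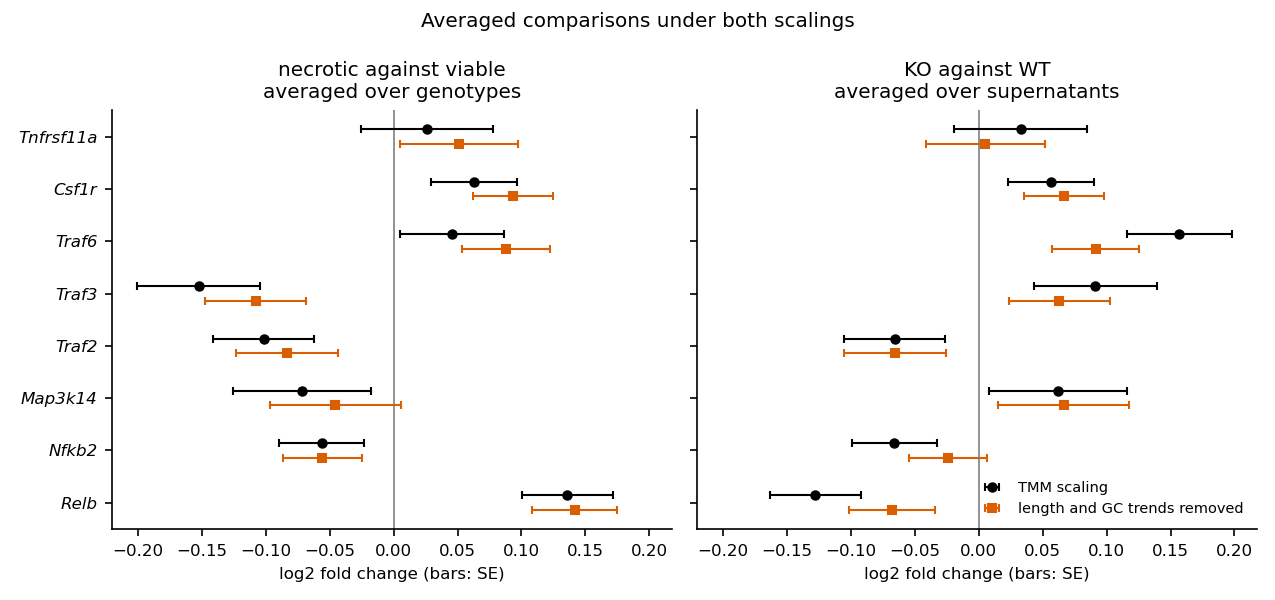
Log2 fold changes (points) with standard errors (bars) of the 8 genes in the 2 averaged comparisons, necrotic against viable on the left and KO against WT on the right, under TMM scaling (black circles) and with trends in gene length and GC content removed (orange squares). Relb in necrotic cultures stays at 0.14 under both, while in KO cultures Traf6 shifts to 0.09 and Relb to -0.07 once the trends are removed.

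Relb and Traf3 also varied against each other among single libraries. Over the 12 libraries the Pearson r of their log2 CPM was -0.87, and within groups, after the group means were taken out, it was -0.73. Of all pairs of members, this one had the largest r in size over the 12 libraries, so it is the extreme of many pairs. Each of the 2 genes had a larger r in size with genes outside the members, as given below. What share of all gene pairs reaches such an r was not tested. Trends in gene length and GC content were not removed from these levels. The 2 genes share the depth and scaling of each library, and r is given as a description. WT necrotic 1 and 2 lay at one end, with Traf3 at 62.9 CPM and Relb at 78.3 and 76.7 CPM, and the KO viable libraries at the other, with Traf3 at 77.2 to 83.3 CPM and Relb at 62.0 to 63.3 CPM. Among the other pairs, Csf1r and Traf2 had r = -0.79 (within groups -0.57), and Traf6 and Traf3 had r = 0.47 (within groups 0.81). Nfkb2 and Relb, whose products form 1 dimer, had r = 0.03, and Tnfrsf11a and Csf1r had r = 0.00.

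**Figure D5:**
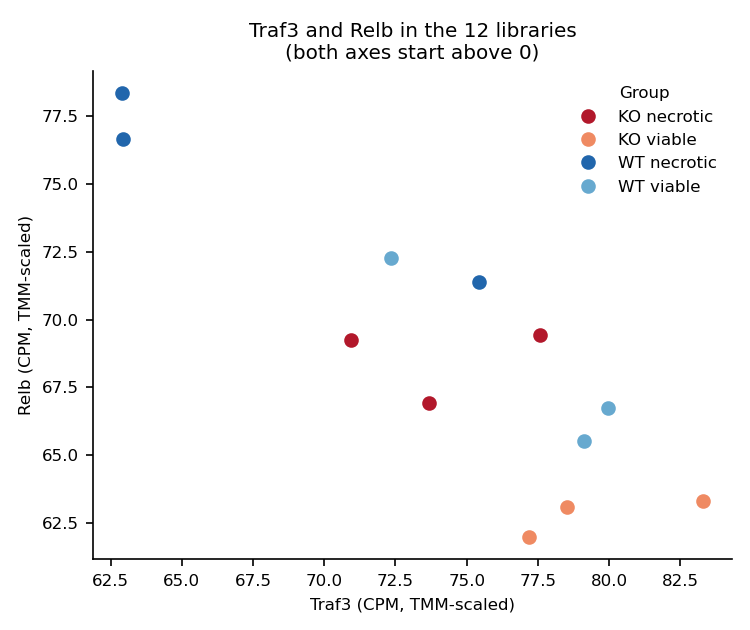
Level of Relb against Traf3 in each of the 12 libraries (CPM after TMM scaling, both axes starting above 0), coloured by group. Of all pairs of members, this one had the largest Pearson r in size over the libraries. Trends in gene length and GC content were not removed. Libraries with low Traf3 have high Relb, from WT necrotic 1 and 2 at the upper left to the KO viable libraries at the lower right.

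Genes whose pattern over the 12 libraries was most like that of each member were sought among 12492 genes with at least 1 CPM, by Pearson r of log2 CPM. For Relb these were Rpl34 (0.97), Ubxn1 (0.97) and Ndufa10 (0.96), and for Traf3 they were Asph (0.96), Fam20b (0.96) and Mphosph9 (0.95). For Traf6 they were Hif1an (0.97), Smurf2 (0.95) and Plek (0.94), and for Nfkb2 Rbm19 (0.97), Vars (0.92) and Ddx39b (0.92). Csf1r was most like Natd1 (0.95), Bcas3 (0.92) and Abhd4 (0.92), Traf2 most like Slc6a13 (0.94), Ftx (0.90) and Stbd1 (0.87), Map3k14 most like Stat5a (0.90) and Cnn2 (0.88), and Tnfrsf11a most like Zfr2 (0.89), Ptch1 (0.88) and Itgav (0.85). No member was among the 3 nearest genes of another.

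The partners of these 8 genes were read from lists of the pathway. Of the ligands, Tnfsf11, which encodes RANKL, had at most 0.260 CPM in any library and was too low to test, beside the RANKL protein added to all cultures. Csf1, which encodes M-CSF, averaged 5.87 CPM, and Il34, the other ligand of the M-CSF receptor, 1.32 CPM. In necrotic against viable cultures 0 of 3 tested ligand and decoy genes passed in either genotype with edgeR, and 0 had an unadjusted p under 0.05. The smallest p belonged to Csf1 in KO (-0.30 ± 0.21) and to Il34 in WT cultures (0.25 ± 0.27). In KO against WT cultures averaged over supernatants, 2 of the 3 were lower, beside 20.5% of all genes called in either direction. Csf1 had a log2 fold change of -0.55 ± 0.14 (adjusted p = 0.0131, edgeR). The other was Tnfrsf11b, which encodes the RANKL decoy osteoprotegerin, with -1.35 ± 0.29 (adjusted p = 0.00521) and with -1.53 ± 0.42 in KO viable against WT viable cultures (adjusted p = 0.0440, edgeR). It averaged 0.643 CPM, under the level set for named genes, and was added after its values were seen. Stromal and bone markers were lower in the same averaged comparison, as given above, and their part was not tested.

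The counts that follow stand beside 9.31% of all genes called in the WT response, 7.43% in the KO response, 5.84% in KO viable against WT viable and 8.13% in KO necrotic against WT necrotic cultures. In a list of 19 genes 1 or 2 calls, and in a list of 10, 11 or 12 genes a single call, are near those shares. More calls than that are a larger share, as is a single call in a list of at most 8 tested genes. The counts are therefore given as a description, and none is a result about its list.

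Of 19 genes that act next to RANK, 1 rose and 1 fell in WT necrotic against WT viable and in KO necrotic against KO viable cultures. Src, the tyrosine kinase needed for the resorbing membrane of osteoclasts, was higher in both, at 174 ± 1.85 CPM in KO necrotic against 142 ± 11.3 CPM in KO viable cultures (log2 fold change 0.29 ± 0.05, adjusted p = 0.00574) and at 182 ± 5.37 CPM in WT necrotic against 142 ± 6.80 CPM in WT viable cultures (0.36 ± 0.05, adjusted p = 0.00149, edgeR). Traf1, a TRAF family member without the ligase domain of its relatives, was lower in both, at -0.24 ± 0.05 in KO (adjusted p = 0.0152) and -0.23 ± 0.05 in WT cultures (adjusted p = 0.0168, edgeR). In genotype comparisons, Gab2, an adaptor that binds RANK, was higher in KO viable against WT viable cultures by 0.18 ± 0.05 (adjusted p = 0.0499), and 0 of 19 passed in KO necrotic against WT necrotic cultures, with 3 at an unadjusted p under 0.05. Traf1 had the smallest p there (-0.18 ± 0.05, adjusted p = 0.0535, edgeR).

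Of 19 genes of M-CSF receptor signalling, 2 fell in the KO response, and 1 rose and 2 fell in the WT response. Plcg2, a phospholipase C, fell, with log2 fold changes of -0.25 ± 0.04 in KO and -0.17 ± 0.04 in WT cultures (adjusted p = 0.00378 and 0.0301). Adam17, the protease that sheds the M-CSF receptor from the cell surface, fell, with -0.21 ± 0.05 in KO and -0.23 ± 0.05 in WT cultures (adjusted p = 0.0193 and 0.0115, edgeR). The Src family kinase Lyn rose by 0.25 ± 0.04 in WT cultures (adjusted p = 0.00361), at 204 ± 6.69 CPM in necrotic against 172 ± 4.67 CPM in viable, and had 189 ± 4.37 CPM in KO necrotic against 185 ± 5.04 CPM in KO viable cultures. Its difference between genotypes in the response, -0.22 ± 0.06, did not pass (adjusted p = 0.571, edgeR). Between genotypes, Cbl, the ubiquitin ligase that turns the M-CSF receptor over, was higher in KO under both supernatants, by 0.32 ± 0.08 under necrotic and 0.39 ± 0.08 under viable (adjusted p = 0.0312 and 0.0170, edgeR).

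Of 11 regulators of the noncanonical arm, 1 fell in each genotype's response, the same gene in both. Traf3ip3, which encodes a protein that binds TRAF3, had 15.3 ± 1.08 CPM in KO necrotic against 20.2 ± 1.33 CPM in KO viable cultures (-0.40 ± 0.08, adjusted p = 0.00932) and 16.4 ± 1.52 CPM in WT necrotic against 21.9 ± 0.403 CPM in WT viable cultures (-0.43 ± 0.08, adjusted p = 0.00648, edgeR). In KO necrotic against WT necrotic cultures 2 of 11 rose: Otud7b, a deubiquitinase that spares TRAF3, by 0.20 ± 0.05 and Zfp91, a ligase that acts on NIK, by 0.20 ± 0.04 (adjusted p = 0.0218 and 0.0153, edgeR). Under viable supernatant 0 of 11 passed and 0 had an unadjusted p under 0.05, and Birc3, one of the ligases of the TRAF complex, had the smallest p (0.08 ± 0.04, adjusted p = 0.268, edgeR).

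Of 8 tested receptors that can feed the noncanonical arm, 1 fell in the KO response, while in the WT response 0 passed with edgeR and 2 had an unadjusted p under 0.05. The gene that fell was Tnfrsf1b, the second TNF receptor, with 275 ± 23.7 CPM in KO necrotic against 362 ± 14.4 CPM in KO viable cultures (-0.40 ± 0.06, adjusted p = 0.00236, edgeR) and with 274 ± 20.0 CPM in WT necrotic against 283 ± 8.25 CPM in WT viable cultures (-0.05 ± 0.06, adjusted p = 0.706). The difference of the 2 responses, -0.35 ± 0.09, did not pass (adjusted p = 0.571, edgeR). It was higher in KO viable against WT viable cultures (0.36 ± 0.06, adjusted p = 0.00640), where Tnfrsf12a, the TWEAK receptor, was lower (-0.50 ± 0.12, adjusted p = 0.0254, edgeR). Tnfrsf12a had the smallest p of the list in the WT response (-0.37 ± 0.12, adjusted p = 0.0626, edgeR). Of 10 canonical NF-kB subunits and inhibitors, the inhibitor gene Nfkbie rose in the WT response (0.24 ± 0.06, adjusted p = 0.0213), beside -0.05 ± 0.06 in the KO response. The kinase gene Ikbkb fell in the KO response (-0.15 ± 0.04, adjusted p = 0.0283), beside -0.12 ± 0.04 in the WT response (adjusted p = 0.0758, edgeR). Ikbkb was higher in KO under both supernatants, by 0.13 ± 0.04 under necrotic and 0.17 ± 0.04 under viable (adjusted p = 0.0470 and 0.0237, edgeR).

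Of 12 transcription factors that act on the receptor genes, Fosl2 rose by 0.21 ± 0.06 and Runx1 fell by 0.29 ± 0.07 in the KO response (adjusted p = 0.0289 and 0.0194), and Cebpa rose by 0.25 ± 0.06 in the WT response (adjusted p = 0.0227, edgeR). In the WT response Fosl2 had 0.15 ± 0.06 (adjusted p = 0.0969) and Runx1 -0.16 ± 0.07 (adjusted p = 0.157), and in the KO response Cebpa had 0.14 ± 0.06 (adjusted p = 0.195, edgeR), so each had the same sign in both genotypes. Between genotypes 0 of 12 passed with edgeR, with 3 under necrotic and 4 under viable supernatant at an unadjusted p under 0.05. The smallest p belonged to Spi1 under necrotic (-0.14 ± 0.06, adjusted p = 0.159) and Runx1 under viable supernatant (0.23 ± 0.07, adjusted p = 0.0586). Of the 4 tested targets of the noncanonical arm, Nfatc1, the master transcription factor of osteoclast formation, rose in both genotypes, with 350 ± 6.84 CPM in KO necrotic against 300 ± 13.0 CPM in KO viable cultures (0.22 ± 0.05, adjusted p = 0.0211) and 352 ± 5.81 CPM in WT necrotic against 301 ± 22.1 CPM in WT viable cultures (0.23 ± 0.05, adjusted p = 0.0156, edgeR). The chemokine gene Ccl22 fell in the KO response (-0.89 ± 0.22, adjusted p = 0.0230), had -0.56 ± 0.22 in the WT response (adjusted p = 0.117, edgeR) and averaged only 2.73 CPM over all libraries.

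In KO necrotic against WT necrotic cultures 0 of 3 ligands and decoys, 0 of 8 receptors and 0 of 4 targets passed with edgeR, with 3, 1 and 0 at an unadjusted p under 0.05. Among genes of at least 1 CPM the smallest p belonged to Csf1 (-0.62 ± 0.20, adjusted p = 0.0685), Ltbr (-0.18 ± 0.07, adjusted p = 0.106) and Ccl22 (-0.27 ± 0.24, adjusted p = 0.510). In KO viable against WT viable cultures 0 of 4 targets passed and 1 had an unadjusted p under 0.05, and among those of at least 1 CPM the smallest p was that of Tnfsf13b (0.08 ± 0.26, adjusted p = 0.888, edgeR).

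For the difference of the responses (KO minus WT), 0 genes of these lists passed with edgeR, and each list had between 0 and 2 genes at an unadjusted p under 0.05. Among genes of at least 1 CPM, the smallest p of their lists belonged to Lyn and Tnfrsf1b, given above, to Nfkbie (-0.29 ± 0.08), Rnf31, a ligase that makes linear ubiquitin chains (-0.25 ± 0.08), Tfe3 (-0.21 ± 0.07), Zfp91 (0.13 ± 0.06), Ccl22 (-0.33 ± 0.31) and Csf1 (-0.15 ± 0.28).

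In the averaged comparisons more genes passed, in these lists and among all genes (19.4% in necrotic against viable and 20.5% in KO against WT cultures). In necrotic against viable cultures Tnfaip3 and Nfkbia, which encode feedback inhibitors of canonical NF-kB, rose by 0.14 ± 0.04 and 0.17 ± 0.05 (adjusted p = 0.0158 and 0.0319), and the AP-1 genes Fosl2 and Jun rose by 0.18 ± 0.04 and 0.19 ± 0.05 (adjusted p = 0.00442 and 0.0180, edgeR). Of the 10 canonical NF-kB subunits and inhibitors 1 rose and 1 fell, and of the 12 transcription factors 3 rose and 1 fell. Of the 19 genes next to RANK, 2 rose and 2 fell, and of the 19 of M-CSF receptor signalling 1 rose and 4 fell, which is near the share of all genes. In KO against WT cultures Rel, a canonical subunit, rose by 0.18 ± 0.05, and Bcl3, an atypical inhibitor that binds processed NFKB2, fell by 0.15 ± 0.04 (adjusted p = 0.0172 and 0.0249). Spi1, which encodes the myeloid factor PU.1 that drives Csf1r, fell by 0.15 ± 0.04 (adjusted p = 0.0187, edgeR). Csf1r itself had 0.06 ± 0.03 there and was not called (adjusted p = 0.252, edgeR). Of the 12 transcription factors 1 was higher and 1 lower, and of the 10 canonical genes 2 were higher and 1 lower. Trends in length and GC content were not removed for the genes of these lists.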

How the data were processed

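RNA of 12 osteoclast cultures was sequenced as paired ends after a NEBNext Ultra library kit, per the labels' protocols. The counts were deposited by the authors as whole numbers for 46983 genes in a single table, with no normalization. Reads had been handled with CASAVA, HISAT2 2.0.5, HTSeq 0.6.1 and GRCm38, per the submitters' processing notes. On the strand setting, the annotation release and reads with several matches nothing is given in the sources used here, so reads of overlapping genes cannot be assigned. GENCODE M21 on GRCm38 gave symbols, exon lengths and GC content and matched 46488 identifiers.

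Counts were analysed in R 4.3.3 with edgeR 4.0.16. filterByExpr kept 14153 genes, TMM factors were 0.971 to 1.02, and all 12 libraries entered 1 quasi-likelihood model of 4 group means (8 residual degrees of freedom; biological coefficient of variation 7.18%). Tests were two-sided at a threshold of 0.05 on Benjamini-Hochberg values across all genes tested. Unless another tool is named, adjusted p-values come from edgeR's quasi-likelihood test, and an error after ± of a log2 fold change is its SE. The scripts were tested on simulated data. Alternatives were median-ratio factors, DESeq2 1.42.0, no filter, the compared groups alone, a replicate block and leaving out each library. The averaged comparisons and the removal of length and GC trends were added after seeing the data.

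The members and pathway lists were chosen with earlier results of these data known. All 8 members are named, with up to 4 genes past the threshold per list that have at least 1 CPM (else the gene with the smallest p), and the 3 genes most like each member. A few genes that this rule names are not reported here. Replicates of a group differed by more than counting noise, so none was counted as a repeat.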

Additional observations from a re-analysis of the deposited data

How the results depend on the processing

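Of 792 recomputed fold changes of the 8 genes, 729 kept their direction and their side of the threshold, 14 lost it, 16 gained it and 33 changed sign. Each of those 33 belonged to a log2 fold change of at most 0.05 in size. With the length and GC trends removed, members called became 1 in WT necrotic against WT viable (Csf1r), 1 in KO necrotic against KO viable (Relb) and 0 in KO against WT averaged over supernatants, and 732 genes passed in KO necrotic against WT necrotic. Of all genes called in the WT response, 876 of 1415 were then higher, against 681 of 1318 with TMM scaling. Signs then turned for Csf1r in the KO response (0.017), Tnfrsf11a in KO necrotic against WT necrotic (-0.014), and the KO minus WT responses of Traf6 (-0.0012), Nfkb2 (0.027) and Relb (0.039). In WT necrotic against WT viable, 1 member was also called with median-ratio factors (Csf1r), with DESeq2 (Csf1r) and with no filter (Traf3), and DESeq2 called 1 in KO viable against WT viable (Csf1r). With the compared groups alone, 359 genes passed in WT necrotic against WT viable, 1820 in KO necrotic against KO viable and 449 in KO viable against WT viable. With no filter, 209 passed for the difference of responses, where DESeq2 gave 5, 1618 in KO viable against WT viable and 1857 in KO necrotic against WT necrotic. The causes were not tested.

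Leaving out 1 library gave 385 (without WT viable 2) to 2015 genes (without WT viable 1) in the WT response, with 603 without WT viable 3 and 528 without WT necrotic 2, and 383 to 647 in the KO response, under the full count for each of its 6 libraries. It gave 227 to 894 in KO viable against WT viable (306 and 315 without WT viable 1 and 2, and 445, 227 and 228 without KO viable 1, 2 and 3), 163 to 1380 in KO necrotic against WT necrotic (163, 341 and 659 without KO necrotic 1, 2 and 3, and 250 without WT necrotic 2), and 1885 (without KO necrotic 1) to 3228 in KO against WT averaged. Members called then ran from 0 to 2 in the WT response, 0 to 3 in KO necrotic against WT necrotic, 1 to 2 in necrotic against viable averaged and 1 to 3 in KO against WT averaged. Where signs changed, the log2 fold changes of Tnfrsf11a ran from -0.022 to 0.13 in the WT response, -0.029 to 0.047 in the KO response, -0.11 to 0.035 for their difference, -0.016 to 0.092 in KO viable against WT viable, -0.068 to 0.070 in KO necrotic against WT necrotic, -0.0049 to 0.070 in necrotic against viable averaged and -0.011 to 0.058 in KO against WT averaged. Those of Traf6 ran from -0.017 to 0.093 in the WT response and -0.035 to 0.074 for the difference of responses, those of Map3k14 from -0.038 to 0.089 in the WT response and -0.098 to 0.028 in KO necrotic against WT necrotic, and that of Traf2 from -0.070 to 0.018 in that comparison. For the difference of responses, Nfkb2 ran from -0.036 to 0.030 and Relb from -0.061 to 0.0082. Csf1r ran from -0.066 to -0.0029 in the KO response.

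With the replicate number as a block, 1231 genes passed in the WT response, 947 in the KO response, 744 in KO viable against WT viable and 1154 in KO necrotic against WT necrotic, with 0 members in each, and no member's call changed. Deviations of same-numbered libraries from their group means had a median correlation of 0.01 over 18 pairs (-0.25 to 0.14). Libraries of different numbers had -0.01 over 36 pairs (-0.17 to 0.20). These pairs mix those within a genotype with those between genotypes, so the medians cannot decide whether libraries were paired within a genotype. The SE of a member's log2 fold change was 0.05 to 0.08 between groups of 3, beside changes of at most 0.20. Depth was not low for these genes, with at least 464 counts for Map3k14, the least abundant, in every library.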
